A study of Homo sapiens with 28 samples.

Results

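FOXF1 gained peaks in senescent fibroblasts at 5948 regions, and 1022 of these (17.2%) lay where no phosphorylated c-JUN (p-c-JUN) peak was listed in proliferating or senescent cells. These 1022 regions are the members described here. They were chosen by joining the FOXF1 peaks of proliferating (Pro) and senescent (Sen) cells on chromosomes 1 to 22 and X wherever they overlapped by at least 1 bp, which gave 45464 regions. Regions with a FOXF1 peak in both Sen lists and in neither Pro list were kept, and of those the regions overlapping no peak in any of the 4 p-c-JUN lists of Pro and Sen cells. FOXF1 and p-c-JUN calls of Pro and Sen cells therefore chose the members and are given as description only, without a test. The number of members depends on the FOXF1 lists: it was 88 with these lists cut to equal length, 9924 without FOXF1 Sen replicate 1, 1972 without FOXF1 Sen replicate 2 and 1709 without p-c-JUN Sen replicate 2. The choice kept 2.25% of all joined FOXF1 regions, and the gain of FOXF1 alone kept 13.1%.

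FOXF1 is a forkhead transcription factor of lung and gut mesenchyme, and FOXF2 is its close relative. c-JUN is a subunit of AP-1, a dimeric factor active in stress and Ras signalling, and phosphorylation of its amino-terminal part marks its activated form. Acetylation of histone H3 at lysine 27 (H3K27ac) is placed mainly by p300 and CBP and marks active enhancers and promoters. Oncogene-induced senescence is a lasting arrest of growth accompanied by secretion of inflammatory factors.

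The study profiled IMR-90 ER:Ras cells, an established human fetal lung fibroblast line carrying an oestrogen receptor-Ras fusion that 4-hydroxytamoxifen switches on, by CUT&RUN, in which an antibody directs a nuclease to its target in permeabilised cells. Sen cells received control siRNA and 100 nM 4-hydroxytamoxifen for 6 days. The titles name proliferating cells as Pro, although their treatment and cell type tags repeat those of Sen cells, so the absence of the drug in Pro cells rests on the titles. The same 100 nM for 6 days is given for Sen cells with siRNA against FOXF1/2, against p300/CBP, or against JUN proteins, whose titles name cJUN/JUND and whose treatment tag also names JUNB. Pro and Sen cells had 2 libraries each for FOXF1 and p-c-JUN. H3K27ac had 2 Pro libraries, Sen replicates 1 to 4, 2 Sen libraries named as the comparison for sip300/CBP, and 2 libraries for each knockdown. FOXF1 was also profiled after siFOXF1/2 and JUN knockdown, and p-c-JUN after siFOXF1/2, with 2 libraries each. The labels do not tell whether replicates were grown separately, so p-values that compare groups of libraries reflect library-to-library spread, which may be technical. The comparison of region classes over all H3K27ac libraries asks only whether libraries differ the same way.

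The lists held between 133 and 93443 peaks, and read depths were not analysed here. List length differed within groups as well as between them. FOXF1 lists held 3441 and 11061 peaks in Pro, and 13603 and 40537 in Sen replicates 1 and 2. A shorter Pro list leaves more regions counted as gained. The p-c-JUN lists held 24808 and 32136 peaks in Pro and 70177 and 93443 in Sen. H3K27ac lists held 84304 and 89329 peaks in Pro, 84864 and 60862 in Sen replicates 1 and 2, and 84673 and 71746 after siFOXF1/2. Sen replicates 3 and 4, accessioned with the JUN knockdown libraries, held 48859 and 26694. A longer list gives a larger share of regions with a peak, so shares are given both for the deposited lists and for lists cut to a common length by −log10 q, the authors' measure of peak confidence. A region without a listed peak is not shown to lack binding. CUT&RUN was done on bulk cells, so fewer cells carrying a mark and less of it per cell cannot be told apart. Gene annotation and sequence in hg19, the build of the peaks, were not used here, so regions are given by position alone.

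At the members, FOXF1 enrichment over background, the authors' fold value, had a median of 5.27 in Sen replicate 1, ranging from 3.36 to 13.0. In Sen replicate 2 the median was 5.81 and the range 3.05 to 18.0. By these medians the members were the weakest of the FOXF1 classes compared. The 2388 regions that gained FOXF1 at sites with p-c-JUN in at least 1 Pro list had medians of 5.35 and 6.18. The 1695 that gained FOXF1 together with p-c-JUN, present in both Sen lists and neither Pro list, had medians of 5.53 and 6.66. The 2047 regions held by all 4 FOXF1 lists had medians of 7.03 and 8.25. When the 5948 gained regions were divided into 5 equal parts by FOXF1 strength, members made up 12.3% of the strongest part, then 15.7%, 17.1%, 18.3% and 22.6% of the weakest. Near the threshold, 77 members had a −log10 q under 2 in the weaker Sen list, while 309 had 5 or more in both lists.

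**Figure D1:**
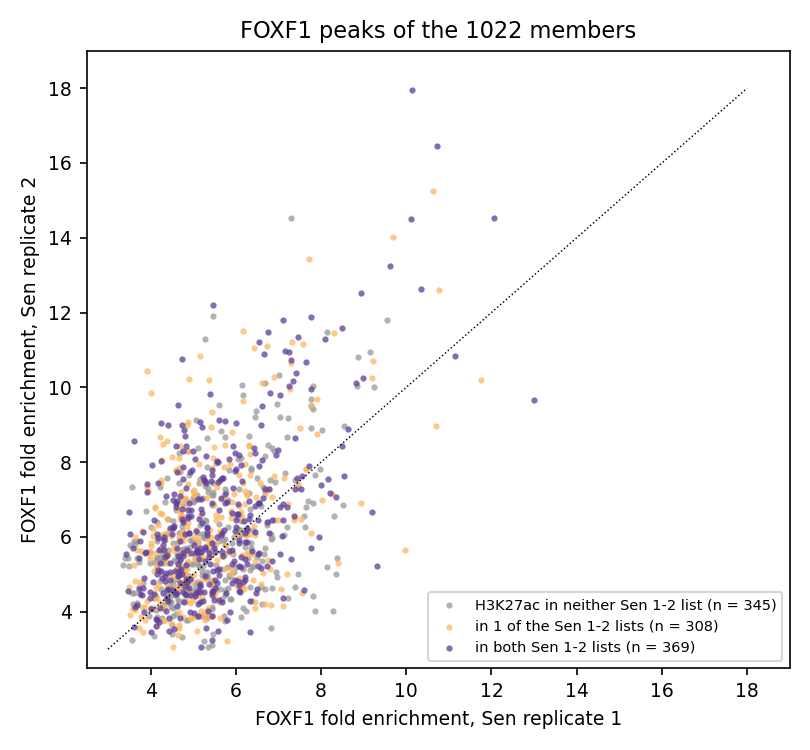
FOXF1 fold enrichment of the 1022 members in Sen replicate 1 (x axis) and Sen replicate 2 (y axis), with 1 point per region and a dotted line of equal values. Colours give H3K27ac in Sen replicates 1 and 2: the 345 members without it in either list had median FOXF1 folds of 5.26 and 5.55 and reached 9.56 and 14.5, and the 369 with it in both had medians of 5.33 and 6.03 and reached 13.0 and 18.0.

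The members were narrow, with a median width of 448.5 bp and a range of 203 to 1268 bp. Their FOXF1 summits in the 2 Sen lists were a median of 67 bp apart, and 66.7% were within 100 bp. The nearest other member lay a median of 585072 bp away, and 155 members (15.2%) fell into 73 groups whose neighbours were within 100 kb. The largest group held 4 members, over chr5:124151781-124317160 (hg19). The nearest other FOXF1 region of both Sen lists lay at a median of 41117 bp.

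Members lay at widely differing distances from p-c-JUN. The gap to the nearest p-c-JUN peak of Pro or Sen cells had a median of 3400 bp and ran from 5 to 160711 bp. A p-c-JUN peak lay within 1 kb of 229 members (22.4%) and within 100 bp of 31, whereas 205 members (20.1%) had none within 10 kb. The closest were chr8:61709067-61709324, chr2:68073100-68073532 and chr2:220072142-220072670, at 5, 6 and 7 bp. Just outside the rule, chr5:10626873-10627636, chr12:125249572-125250406 and chr1:221631252-221631683 overlapped p-c-JUN peaks by 1, 5 and 12 bp. Of all gained regions, 14 were left out through an overlap of 50 bp or less.

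**Figure D2:**
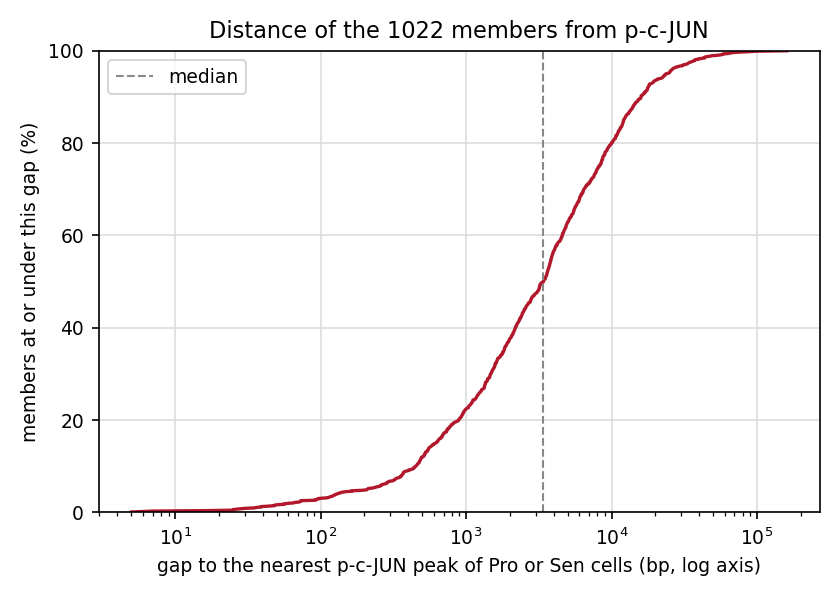
Cumulative share of the 1022 members (y axis, %) by the gap in bp to the nearest p-c-JUN peak of Pro or Sen cells (x axis, logarithmic), with a dashed line at the median of 3400 bp. The curve passes 22.4% at 1 kb and nears 100% at 100 kb.

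H3K27ac was not used to choose the members and was less frequent at them than at gained regions with p-c-JUN, but in Pro and in Sen replicates 1 to 4 it was no less frequent than at the other joined FOXF1 regions without p-c-JUN. In Pro cells 40.0% and 43.4% of members had an H3K27ac peak. In Sen replicates 1 to 4 the shares were 60.0%, 42.4%, 17.5% and 7.63%, and after siFOXF1/2 they were 30.1% and 27.6%. JUN knockdown gave 34.0% and 12.9%. The Sen libraries paired with sip300/CBP gave 4.50% and 0.489%, and sip300/CBP itself 1.37% and 0.196%, from lists of 8234, 2046, 4186 and 1549 peaks. The 11622 other joined FOXF1 regions without p-c-JUN had lower shares than the members in Pro, 34.6% and 37.5%, and in Sen replicates 1 and 2, 40.0% and 26.9%. Of these regions, 10.5% had a FOXF1 peak in Sen replicate 1 and 82.8% in replicate 2, whereas every member had both. The 71 of them held by all 4 FOXF1 lists had higher shares than the members. These were 90.1% and 85.9% in Pro and 76.1% and 57.7% in Sen replicates 1 and 2. All joined FOXF1 regions had 62.6% and 64.2% in Pro and 69.5% and 52.0% in Sen replicates 1 and 2. Sen replicates 1 to 4 alone spanned most of the range seen over all libraries. In 14 of 14 libraries the members had a lower share than regions gained at p-c-JUN sites of Pro cells, by a mean of 30.5 percentage points (SD 20.2, exact sign-flip permutation test over libraries, two-sided p = 0.000122, the smallest it can give, 0.000244 after Benjamini-Hochberg adjustment over 2 comparisons). Against regions gained together with p-c-JUN the share was lower in 13 of 14 libraries, by a mean of 16.5 points (SD 12.4, exact p = 0.000366, adjusted 0.000366). The libraries share conditions, so they are not 14 independent cultures. All 14 also score the same regions, so the test asks only whether libraries differ the same way. It does not cover the choice of regions.

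**Figure D3:**
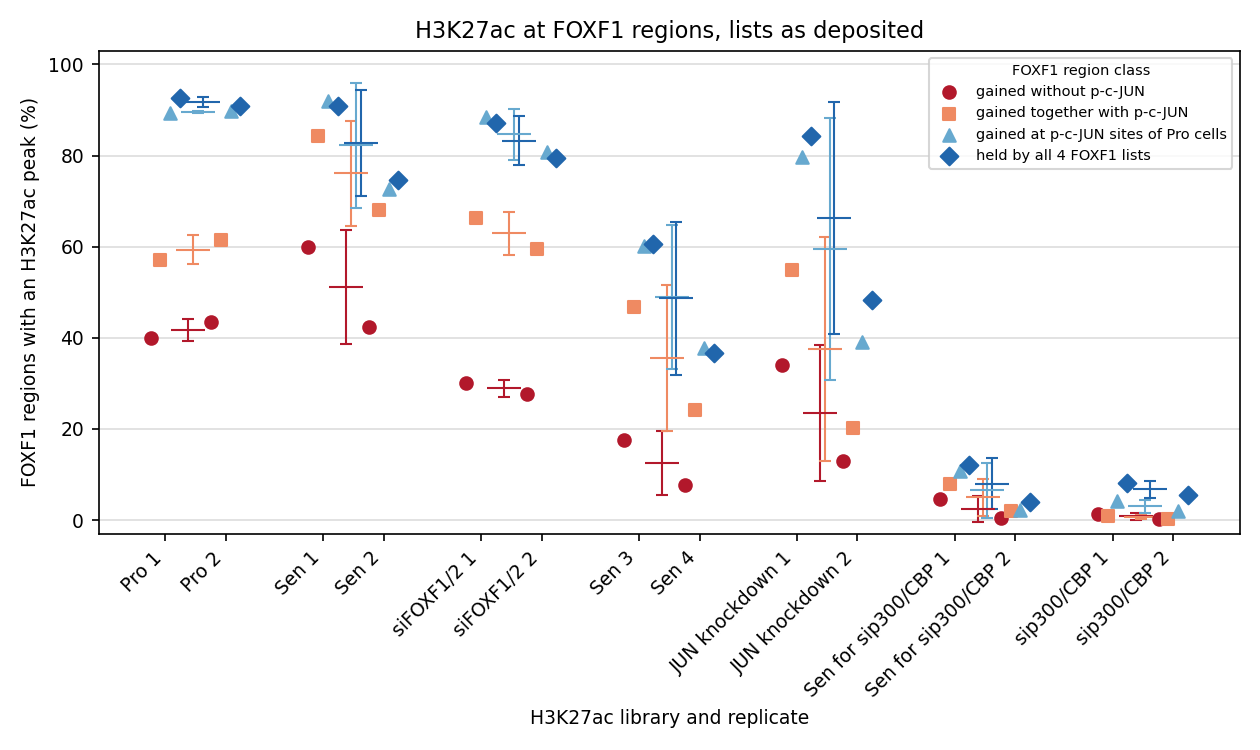
Share of FOXF1 regions with an H3K27ac peak (y axis, %) in each of the 14 deposited lists (x axis), for 4 classes of FOXF1 region, with horizontal bars for the mean of 2 libraries and error bars of 1 SD. Members, in dark red, lie below regions gained at p-c-JUN sites of Pro cells in 14 of 14 libraries and below regions gained together with p-c-JUN in 13, and run from 60.0% in Sen replicate 1 to 0.196% in 1 sip300/CBP library.

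No H3K27ac peak was found in any of the 14 lists at 224 members (21.9%), compared with 14.7% of all joined FOXF1 regions. The share was 6.08% of regions gained together with p-c-JUN, 1.21% of those gained at p-c-JUN sites of Pro cells, and 38.7% of other joined regions without p-c-JUN, so the members lay between these classes. Another 135 members (13.2%) had H3K27ac in all 6 lists of Pro, Sen replicates 1 and 2 and siFOXF1/2, compared with 33.1% of all joined regions and 9.77% of other joined regions without p-c-JUN. Among the 10 strongest members by FOXF1, folds were 8.31 to 12.1 in Sen replicate 1 and 10.0 to 18.0 in replicate 2, and the number of lists with H3K27ac ran from 0 to 7. The strongest member without H3K27ac, also 1 of these 10, was chr3:190857234-190857975, with FOXF1 folds of 9.24 and 10.0 and the nearest H3K27ac peak 756 bp away. Where a member did carry H3K27ac, the FOXF1 summit was inside the peak at 89.4% of members in Sen replicate 1 and 81.8% in replicate 2. The shares were much alike at regions gained together with p-c-JUN, 92.1% and 80.2%, and at p-c-JUN sites of Pro cells, 92.6% and 82.5%. Only regions that already overlapped the H3K27ac peak were counted. Median widths of those H3K27ac peaks were 611 and 476 bp at the members. They were 788 and 595.5 bp at regions gained together with p-c-JUN, and 966 and 665 bp at regions gained at p-c-JUN sites of Pro cells.

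Whether H3K27ac was more frequent in Sen than in Pro cells depended on the Sen libraries used. Sen replicates 1 and 2 exceeded Pro by 9.44 ± 8.97 points (SE, n = 2 and 2, exact permutation test, two-sided p = 0.667), and the groups overlapped. With 2 libraries against 2 the smallest possible p is 0.33. Cut to 60862 peaks each, Pro had 30.3% and 31.3% and Sen replicates 1 and 2 had 48.0% and 42.4%, a difference of 14.4 ± 2.88 points without overlap. With Sen replicates 3 and 4 in their place the difference from Pro was -29.2 points, and with all 4 it was -9.86. At 26694 peaks each, a length set after seeing the data, members had H3K27ac at 11.8% and 13.3% in Pro and at 22.2%, 19.9%, 11.3% and 7.63% in Sen replicates 1 to 4. Replicates 1 and 2 were above both Pro libraries and replicates 3 and 4 below them, so the spread within Sen exceeded the difference from Pro. What sets replicates 3 and 4 apart was not tested.

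By individual region, 100 members (9.78%) had H3K27ac in Sen replicates 1 and 2 and in neither Pro list, against 4.56% of all joined FOXF1 regions. The share was higher, 13.0%, at regions gained together with p-c-JUN. It was 10.3% at the 843 regions gained with p-c-JUN in 1 Sen list and no Pro list. Regions gained at p-c-JUN sites of Pro cells had 1.47%, and other joined regions without p-c-JUN 4.04%. H3K27ac in both Pro lists and in neither of these Sen lists was found at 36 members (3.52%), against 4.22% of all joined regions. The strongest member with a gain was chr1:79202801-79203516, with FOXF1 folds of 12.1 and 14.5, H3K27ac folds of 5.57 and 5.30 in Sen replicates 1 and 2, and its nearest p-c-JUN peak 5720 bp away. chr10:22931564-22932052 had FOXF1 folds of 10.7 and 16.5 and H3K27ac folds of 4.04 and 3.79. At chr3:143583801-143584321 the FOXF1 folds were 10.1 and 18.0, and the H3K27ac folds 4.62 and 4.18. None of these 3 had an H3K27ac peak in Pro, in siFOXF1/2 or in Sen replicates 3 and 4.

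After siFOXF1/2 the members carried H3K27ac less often than in Sen replicates 1 and 2. The mean share went from 51.2% ± 12.5 to 28.9% ± 1.80 (SD, n = 2 each), a difference of -22.3 ± 8.90 points (SE, exact permutation p = 0.33, two-sided, the smallest the design allows). The groups did not overlap. Cut to 60862 peaks the shares were 48.0% and 42.4% in Sen and 22.6% and 23.9% after siFOXF1/2, a difference of -22.0 ± 2.91 points. Against Sen replicates 3 and 4 as deposited the direction turned, to 16.3 points higher after siFOXF1/2. At 26694 peaks each, siFOXF1/2 gave 10.1% in both libraries, between the 11.3% and 7.63% of those replicates. Against all 4 Sen replicates as deposited the difference was -3.01 points (exact permutation p = 0.933, two-sided). The lower share after siFOXF1/2 was thus measured against replicates 1 and 2, and against all 4 it lay within the spread.

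**Figure D4:**
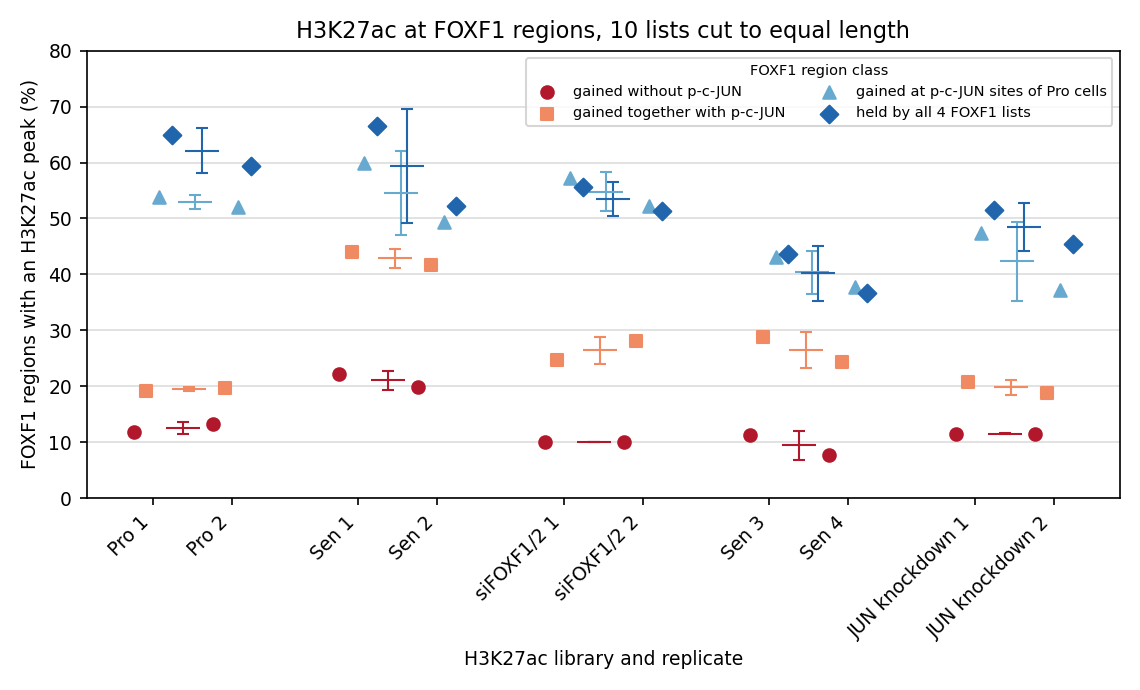
Share of FOXF1 regions with an H3K27ac peak (y axis, %) after the 10 lists of Pro, Sen, siFOXF1/2 and JUN knockdown (x axis) were cut to their 26694 most confident peaks, with horizontal bars for the mean of 2 libraries and error bars of 1 SD. Members, in dark red, stand at 22.2% and 19.9% in Sen replicates 1 and 2 and between 7.63% and 13.3% in the other 8 lists.

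The other classes of gained region did not all differ alike between the same 4 libraries. Regions gained at p-c-JUN sites of Pro cells had H3K27ac at a mean of 82.3% in Sen replicates 1 and 2 and 84.6% after siFOXF1/2, and regions gained together with p-c-JUN at 76.1% and 62.9%. The change at members was 24.7 ± 2.77 points more negative than at the former and 9.09 ± 2.19 points more negative than at the latter (SE, exact permutation p = 0.33 for each, two-sided, the smallest possible). With H3K27ac lists cut to equal length these differences were -22.5 and -4.09 points, so the second was much smaller at equal length. Both kept their sign under the 22 alternatives that could move them. The 71 regions held by all 4 FOXF1 lists without p-c-JUN also had lower shares, 76.1% and 57.7% in Sen replicates 1 and 2 and 54.9% and 45.1% after siFOXF1/2, and the 843 regions gained with p-c-JUN in 1 Sen list had means of 66.4% and 45.1%. At 60862 peaks each this last class had 60.4% and 36.9%, a difference of -23.5 points, as large as that at the members. Other joined FOXF1 regions without p-c-JUN had 40.0% and 26.9% in Sen replicates 1 and 2, then 26.5% and 21.8%. A lower share after siFOXF1/2 was thus also measured at FOXF1 regions outside the members.

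The strongest part by FOXF1, 146 members, had H3K27ac at 59.6% and 50% in Sen replicates 1 and 2 and at 26.7% and 21.9% after siFOXF1/2. The weakest, 269 members, had 54.6% and 39.4%, then 32.7% and 32.3%. The larger fall in the strongest part was also seen at regions gained together with p-c-JUN. Their strongest part had 88.6% and 70.8%, then 62.2% and 61.0%, and their weakest 79.7% and 64.8%, then 71.1% and 61.3%.

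By region, 143 members (14.0%) had H3K27ac in Sen replicates 1 and 2 and in neither siFOXF1/2 list, against 4.80% of all joined regions. The share was 12.3% at regions gained with p-c-JUN in 1 Sen list and 9.09% at regions gained together with p-c-JUN. It was 11.3% at regions held by all 4 FOXF1 lists without p-c-JUN and 6.13% at other joined regions without p-c-JUN. Regions gained at p-c-JUN sites of Pro cells had 1.38%. H3K27ac in both siFOXF1/2 lists and in neither of these Sen lists was found at 6 members (0.587%), against 1.82% of all joined regions. Both the gain in Sen and the loss after siFOXF1/2 were met at 70 members (6.85%), against 1.99% of all joined regions, and the same Sen lists enter both calls. The share was 5.81% at regions gained with p-c-JUN in 1 Sen list and 4.66% at regions gained together with p-c-JUN. They include the 3 regions just named. Of those lost after siFOXF1/2, chr1:40545587-40546112 had H3K27ac folds of 4.78 and 3.93 in Sen replicates 1 and 2. At chr4:88141810-88142442 the folds were 5.20 and 5.11, and this region had peaks of 7.10 and 5.97 after JUN knockdown.

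Members with and without H3K27ac in Pro cells, a split made after seeing the data, also differed in the other libraries. Of the 340 members with H3K27ac in both Pro lists, 86.2% and 62.4% had it in Sen replicates 1 and 2 and 63.8% and 58.2% after siFOXF1/2. The 2037 regions of this kind gained at p-c-JUN sites of Pro cells had 96.1% and 78.4%, then 94.5% and 87.2%. The 866 gained together with p-c-JUN had 95.3% and 82.3%, then 87.3% and 79.2%. Nearer to the members, the 400 gained with p-c-JUN in 1 Sen list had 92% and 75.5%, then 72% and 65%. All 25890 joined FOXF1 regions with H3K27ac in both Pro lists had 90.5% and 71.2%, then 85.7% and 76.7%. Of the 509 members with H3K27ac in neither Pro list, 40.3% and 27.5% had it in Sen replicates 1 and 2 and 9.04% and 8.84% after siFOXF1/2. The 551 regions of this kind gained together with p-c-JUN had 66.6% and 45.7%, then 35.9% and 32.5%. The 298 gained with p-c-JUN in 1 Sen list had 53.7% and 37.2%, then 13.8% and 16.1%. The 150 gained at p-c-JUN sites of Pro cells had 54.7% and 28%, then 38.7% and 30%. All 13719 joined FOXF1 regions with H3K27ac in neither Pro list had 32.1% and 20.7%, then 17.5% and 15.0%. Sen replicates 3 and 4 gave 5.89% and 2.55% at these 509 members, below both siFOXF1/2 libraries.

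**Figure D5:**
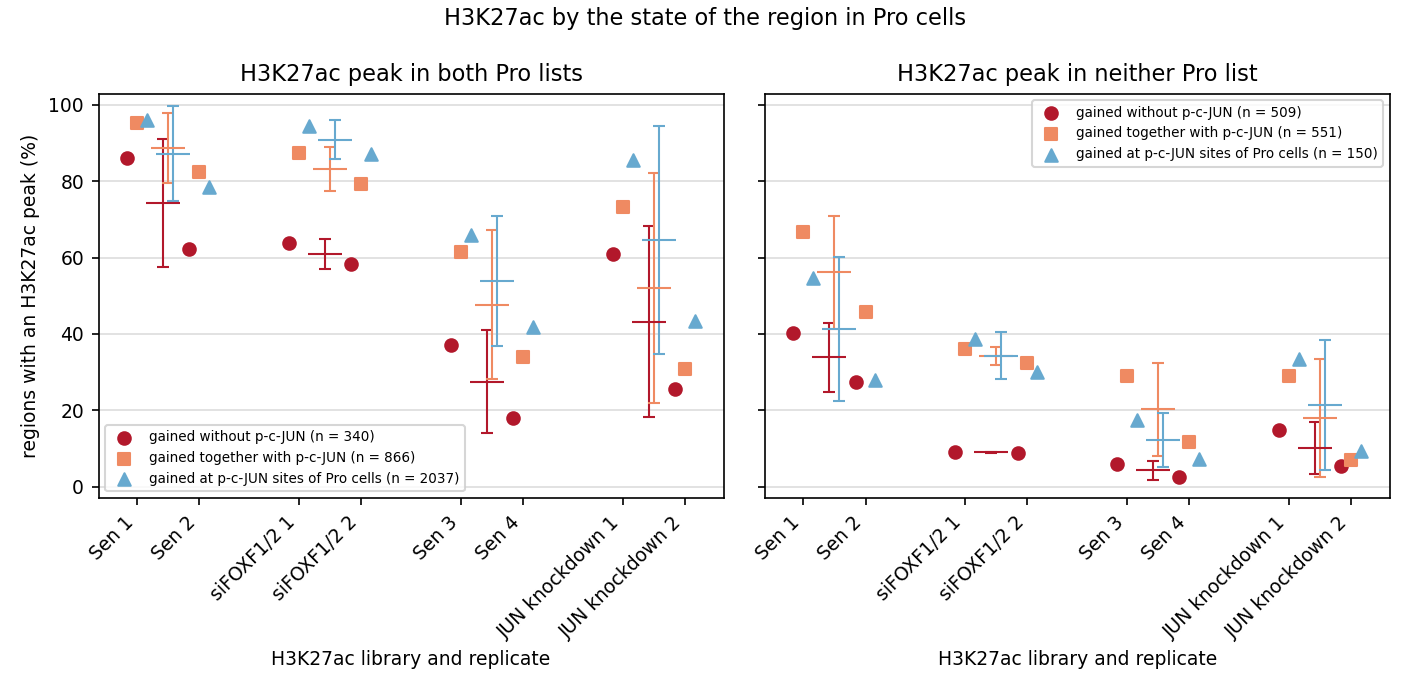
Share of regions with an H3K27ac peak (y axis, %) in Sen, siFOXF1/2 and JUN knockdown libraries (x axis), for regions with H3K27ac in both Pro lists (left) or neither (right), with horizontal bars for the mean of 2 libraries and error bars of 1 SD. On the right, members in dark red stand at 40.3% and 27.5% in Sen replicates 1 and 2 and at 9.04% and 8.84% after siFOXF1/2.

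JUN knockdown was compared with Sen replicates 3 and 4. Members had H3K27ac at 12.6% ± 6.99 in Sen and 23.4% ± 14.9 after knockdown (SD, n = 2 each), a difference of 10.9 ± 11.6 points that lay within the spread (exact permutation p = 0.667, two-sided). At 26694 peaks each the shares were 11.3% and 7.63% in Sen and 11.5% and 11.4% after knockdown. Regions gained together with p-c-JUN, cut in the same way, had 28.7% and 24.2% in Sen and 20.8% and 18.8% after knockdown. The difference between these classes in the deposited lists was 8.91 ± 9.35 points (exact permutation p = 0.667, two-sided). H3K27ac was gained after knockdown at 46 members (4.50%), near the 5.00% of all joined regions, and lost at 5 (0.489%), against 1.38%. All joined FOXF1 regions had a share 9.36 points higher after JUN knockdown as deposited and 2.03 points higher at 26694 peaks. Both were close to the 10.9 and 2.05 points at the members. With sip300/CBP the difference was -1.71 ± 2.09 points (exact permutation p = 0.667, two-sided). So few members had a peak in its Sen control lists that a change was not detectable at this list length. With sip300/CBP 1 member (0.0978%) lost H3K27ac, against 0.442% of joined regions, and 0 gained it, against 0.266%.

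FOXF1 peaks were all but missing from the members after either knockdown. After siFOXF1/2 there were 0 of 1022 in both libraries, which allows a share of up to 0.294% in each for counting error alone, from lists of only 186 and 133 peaks. Of all joined regions, 0.213% and 0.187% had one, and of other joined regions without p-c-JUN, 0.0258% and 0.0172%. After JUN knockdown, with lists of 378 and 883 peaks, 0 and 2 members (0.196%) had a peak, against 0.556% and 1.17% of all joined regions. Other joined regions without p-c-JUN had 0.129% and 0.396%, and regions gained together with p-c-JUN 0.118% and 0.236%. Shares were higher at regions gained at p-c-JUN sites of Pro cells, 0.544% and 1.05%. They were highest at regions held by all 4 FOXF1 lists, 5.42% and 5.91%, and this class had 2.74% and 2.49% after siFOXF1/2. The 2 members with a peak were chr6:116512225-116512631 and chr19:18263317-18263835, both named after their values were seen. With lists this short, loss at the members and loss across the genome cannot be told apart, and the JUN knockdown was accessioned apart from the FOXF1 Sen libraries.

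p-c-JUN was uncommon at the members after siFOXF1/2, at 41 (4.01%) and 75 (7.34%) of them. Other joined FOXF1 regions without p-c-JUN in Pro and Sen cells had 4.76% and 7.62%, close to the members. A peak in both siFOXF1/2 lists was found at 18 members (1.76%) and at 2.13% of other joined regions without p-c-JUN. Of all joined regions, most of which already had p-c-JUN in Sen, 47.4% had a peak in both siFOXF1/2 lists. A peak in both siFOXF1/2 lists and in neither Sen list was found at 0.796% of all joined regions. The strongest of the 18 by FOXF1 was chr7:18429134-18429542, with p-c-JUN folds of 4.71 and 3.40 and a p-c-JUN peak of Pro or Sen cells 261 bp away.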

How the data were processed

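The authors deposited 28 peak lists, 1 per library, in 13 groups taken from the titles. Bowtie2 2.3.4.1, SAMtools 1.9, deepTools 3.1.1, MACS2 3.0.0 and build hg19 are named per the submitters' processing notes. Parameters, the control library and any use of the spike-in are not given in the sources used here. Each deposited peak has a score, a fold enrichment over background, a −log10 p and a −log10 q value. The fold and −log10 q are the authors' and were used to describe, rank and filter peaks within a list.

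Peaks off chromosomes 1 to 22 and X were left out (475 of 1123812). A region had a mark where it overlapped a peak by at least 1 bp. Shares were compared over libraries with exact permutation tests, and class differences with an exact sign-flip test, in Python 3.11.15 with numpy 2.4.6, pandas 2.3.3 and scipy 1.17.1. The code that assigns region classes was run on simulated lists with well-separated planted regions, and 100.0% of these were recovered. That checks the code only and does not measure wrong assignment in the real lists. Named regions were the 10 strongest by their worse −log10 q rank in the 2 Sen lists, the 5 strongest of each H3K27ac or p-c-JUN pattern, and the 3 nearest p-c-JUN on each side of the rule. The members and lists were chosen with earlier results of these data known.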

Additional observations from a re-analysis of the deposited data

How the results depend on the processing

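The tests of 2 libraries against 2 cannot pass a threshold of 0.05, so for them only direction and size can change. Leaving aside the replicate block, which cannot move a difference, Sen minus Pro kept its direction in 20 of 22 settings, siFOXF1/2 minus Sen in 21 of 22, JUN knockdown in 16 of 16 and sip300/CBP in 15 of 16. Most settings for Sen minus Pro and siFOXF1/2 minus Sen kept H3K27ac Sen replicates 1 and 2. Their counts therefore do not speak for other Sen libraries. The number of members was 88 with FOXF1 lists cut to equal length and from 1028 to 9924 when 1 library was left out: 9924 without FOXF1 Sen replicate 1, 1972 without FOXF1 Sen replicate 2 and 1709 without p-c-JUN Sen replicate 2. Choosing peaks with −log10 q of 5 or more gave 11.9% of members with p-c-JUN and 0.0714% with FOXF1 after siFOXF1/2. Leaving out 1 library gave 5.30% to 11.5% and 0% to 0.00504%, and 0.0849% to 0.234% with FOXF1 after JUN knockdown. With H3K27ac Sen replicates 3 and 4, Sen minus Pro was -29.2 points and siFOXF1/2 minus Sen 16.3. With all 4 Sen replicates, Sen minus Pro was -9.86 and siFOXF1/2 minus Sen -3.01. The cause was not tested. Leaving out 1 library gave 0.636 to 18.2 points for Sen minus Pro, -31.1 to -11.2 for siFOXF1/2 minus Sen, 0.342 to 21.4 for JUN knockdown, and -3.72 to 0.294 for sip300/CBP, positive without its control replicate 1. Over Pro and Sen replicates 1 and 2 alone the class differences were -39.4 and -21.2 points, and 4 libraries cannot give a p below 0.125. Left-out libraries gave -32.7 to -26.1 and -18.6 to -11.5.

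Differences of change between classes were chosen after seeing the data, as were a window of 400 bp around the FOXF1 summit, the 10 lists cut to 26694 peaks and the split by Pro state. For siFOXF1/2 they were -27.3 to -15.8 and -11.9 to -3.89 points without 1 library, and -22.5 and -4.09 with H3K27ac lists cut to equal length. For JUN knockdown, members minus regions at p-c-JUN sites of Pro cells was 0.350 points, -1.81 in the 400 bp window and -9.48 to 10.2 without 1 library, and members minus regions gained together with p-c-JUN was 2.06 to 15.8.

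Replicate numbers are shared without a stated pairing, and deviations of same-numbered libraries correlated at -0.03, -0.04 and 0.04 over 1022 regions. With a replicate block the differences were the same, 9.44, -22.3, 10.9 and -1.71 points, and between classes -24.7, -9.09, 0.350 and 8.91, with an exact sign-flip p of 0.5 or 1. Forkhead and AP-1 motifs and distance to start sites were not run.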
